A study of Homo sapiens with 6 samples.

Results

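The 10 genes described here encode writers, readers and guides of histone H3 lysine 9 trimethylation (H3K9me3) and of retroelement silencing, and were taken from the count tables by symbol: SETDB1, TRIM28, ATF7IP, MPHOSPH8, PPHLN1, MORC2, SUV39H1, SUV39H2, CBX5 and CBX1. All 10 were among the 23368 symbols counted in each library. All 10 passed the filter on low counts that left 13209 genes for testing, and none had fewer than 609 reads in any library.

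RNA was sequenced from NB4 cells, a human acute promyelocytic leukemia (APL) cell line, either not treated (n.t.) or exposed for 24 h to 10 µM maltonis, a synthetic hydroxypyrone derived from maltol, with 3 libraries per group. Both groups are the same single cell line, and the comparison asks which transcripts differ in level when the compound is present. The methods of the study describe the libraries of a group as biological replicates, so the p-values measure the spread between replicates of this line. Levels are given as CPM, the reads of a gene relative to the depth of its library, scaled by the trimmed mean of M-values (TMM), and a gene was called higher or lower when its adjusted p (FDR) in edgeR's quasi-likelihood test was under 0.01.

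H3K9me3 marks compact, transcriptionally silent chromatin. In the retroelement branch of the pathway, KRAB zinc finger proteins bind the elements and recruit TRIM28 (KAP1), which brings in the methyltransferase SETDB1, while the human silencing hub (HUSH) complex spreads and maintains the mark over young elements and transgenes. In the constitutive branch, SUV39H1 and SUV39H2 methylate pericentromeric repeats, and the heterochromatin protein 1 (HP1) family, which includes CBX5 and CBX1, binds the methylated histone and bridges nucleosomes.

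The 6 libraries held between 18492154 and 38205483 counts, so that 3 counts corresponded to 0.0828 to 0.160 CPM. Replicates of a group differed by more than sampling noise, with a chi-square per degree of freedom of 4.15 to 33.1, and each was kept as its own sample. The names of the deposited libraries carry a code that puts replicate 1 of each group in one batch (A) and replicates 2 and 3 in another (B), and what the code means is not stated. All 8 promyelocyte and myeloid markers were detected in every library, led by MPO at 12892 to 15528 CPM in n.t. and 7298 to 7553 CPM in maltonis libraries, and with maltonis 3 of the 8 were higher, 4 lower and 1 did not pass. Of 10 markers of T, B, erythroid, epithelial and fibroblast cells, 4 had at most 3 counts in every library, CD3E, MS4A1 and HBB among them, and the summed level of the list was 62.5 to 65.2 CPM in n.t. and 31.7 to 32.4 CPM in maltonis libraries. CD3D was the main contributor in n.t. libraries, at 42.9 to 44.8 CPM against 14.9 to 15.8 CPM with maltonis. Of the other tested markers of this list, EPCAM was lower (17.1 ± 0.899 against 11.2 ± 1.41 CPM) and KRT8 was higher (2.62 ± 0.197 against 4.86 ± 0.840 CPM, SD, n = 3). The part of these changes in the results below was not tested.

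The pathway did not move as a block. Of the 10 genes, 3 were higher with maltonis (SETDB1, MPHOSPH8 and SUV39H1), 5 were lower (TRIM28, PPHLN1, MORC2, SUV39H2 and CBX1) and 2 did not pass the test (ATF7IP and CBX5). Over all genes tested, 64% were called in either direction, 31.9% higher and 32.1% lower, so that 8 calls among 10 genes lay in a transcriptome in which most genes were called. None of the 10 also passed the size criterion that the study set on the log2(FC), which 20.3% of all genes tested passed together with the FDR (9.96% higher and 10.4% lower). The median log2(FC) of the 10 genes was −0.25, and that of all genes tested was 0.01. In 8 of the 10 the 3 maltonis libraries did not overlap the 3 n.t. libraries, and 76.6% of all genes tested had such a separation (38.8% with maltonis above and 37.8% with maltonis below). The 8 genes without overlap were the 8 called ones. That separation fixed their direction in batch A alone and in batch B alone, so the same direction in both adds no support. In bulk RNA, fewer cells of a kind and less RNA per cell cannot be told apart.

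**Figure D1:**
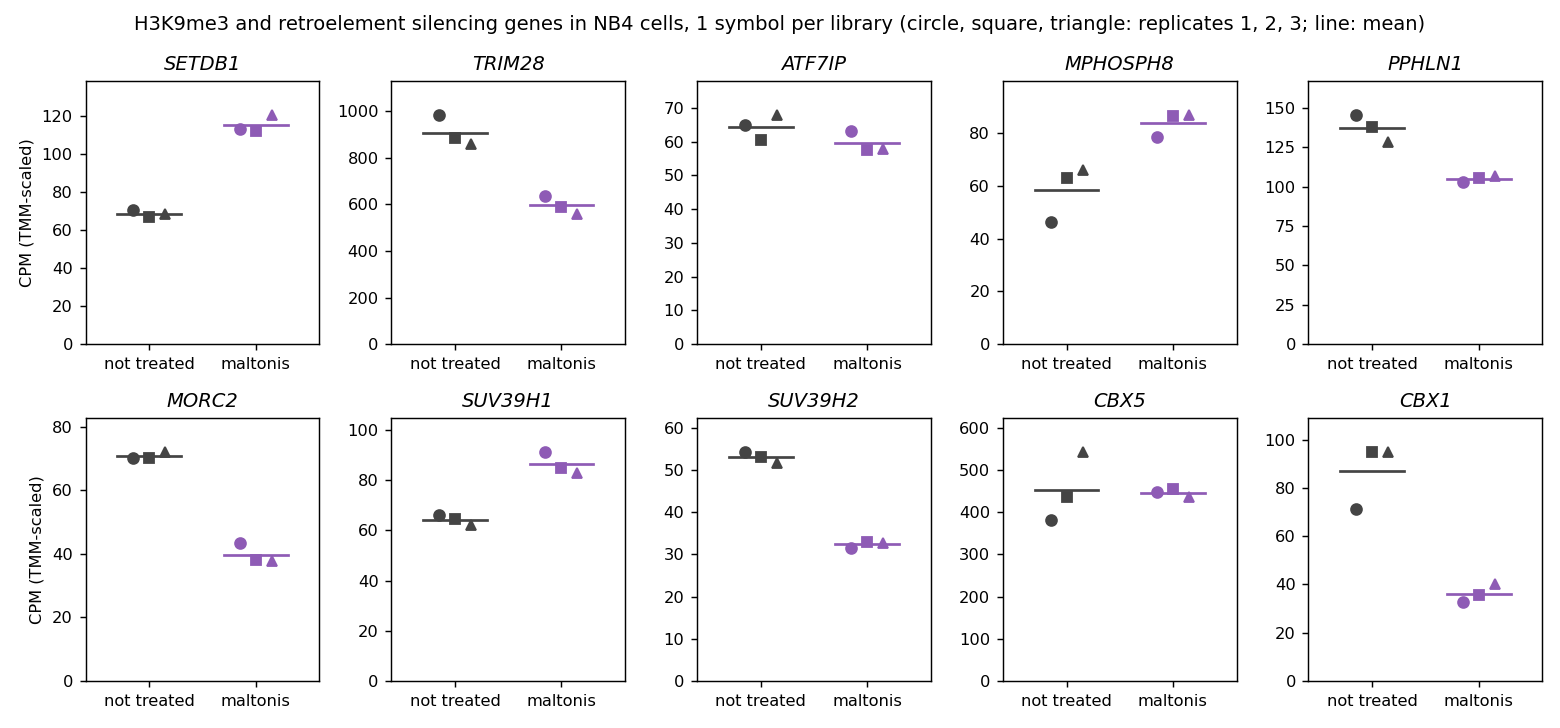
TMM-scaled CPM (y axis, from 0, own scale per gene) of each of the 10 genes in the 3 n.t. and 3 maltonis libraries; each symbol is 1 library and each line a group mean. The groups are apart in 8 panels and overlap in those of ATF7IP and CBX5.

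The SETDB1 branch moved in opposite directions at its enzyme and at its scaffold. SETDB1, the methyltransferase that trimethylates H3K9 at retroelements, was at 70.7, 67.1 and 68.4 CPM in n.t. replicates 1, 2 and 3 and at 113, 112 and 121 CPM in the maltonis ones. Every maltonis library was above every n.t. library, and the replicates of each group were close together. The increase was 1.68-fold (log2(FC) 0.75, SE 0.0587, edgeR adjusted p = 5.31e-06), which placed SETDB1 at the percentile 79.2 of all genes tested.

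TRIM28, the scaffold that links KRAB zinc finger proteins to SETDB1, was at 981, 884 and 856 CPM in n.t. libraries and at 637, 589 and 559 CPM in maltonis libraries. All 3 treated libraries lay below the lowest untreated one. The transcript was lower by 1.52-fold (log2(FC) −0.61, SE 0.0748, edgeR adjusted p = 8.79e-05).

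ATF7IP, the partner that stabilizes SETDB1 and retains it in the nucleus, was at 64.9, 60.6 and 67.8 CPM in n.t. libraries and at 63.1, 57.5 and 57.9 CPM in treated libraries. The groups overlapped. Its log2(FC) of −0.12 did not pass the test (edgeR adjusted p = 0.162), and the 95% interval from −0.28 to 0.04 leaves room for a decrease of that size.

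Within each library, the log2 ratio of SETDB1 to TRIM28 was −3.70 ± 0.0740 (SD, n = 3) in n.t. cells and −2.35 ± 0.139 (SD, n = 3) with maltonis, a change of 1.35. The log2 ratio of SETDB1 to ATF7IP went from 0.09 ± 0.0703 to 0.95 ± 0.105 (SD, n = 3 each), a change of 0.85. Neither ratio overlapped between the groups. For both, the two-sided exact permutation p was 0.1, the smallest that 3 against 3 libraries allow, as it was for each of the 8 ratios computed between members or paralogs (adjusted p = 0.1 over the 8).

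The HUSH arm also held genes that moved in opposite directions. MPHOSPH8 (MPP8), the chromodomain subunit that binds H3K9me3, was at 46.2, 62.96 and 66.1 CPM in n.t. libraries and at 78.5, 86.3 and 86.6 CPM in maltonis libraries. Replicate 1, the batch A library, was the lowest of each group, and the n.t. values spread more than those of most other members, but the groups did not overlap. The increase was 1.43-fold (log2(FC) 0.52, SE 0.125, edgeR adjusted p = 0.00485), with a log2 difference of 0.75 in batch A and a log2(FC) of 0.42 in batch B. This was the one call among the 8 that was lost when single libraries were left out: without n.t. replicate 2 or without maltonis replicate 1, 2 or 3 the adjusted p rose to 0.0103, 0.0178, 0.0321 and 0.0333, and the log2(FC) stayed between 0.37 and 0.61 over all 6 omissions.

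PPHLN1 (periphilin), the HUSH subunit that binds RNA, was at 145, 138 and 128 CPM in n.t. cells and at 103, 105 and 107 CPM with maltonis. The maltonis libraries lay within 4 CPM of each other, and all were below the n.t. ones. The decrease was 1.30-fold (log2(FC) −0.38, SE 0.0629, edgeR adjusted p = 0.000525), the smallest in size among the 8 called genes.

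MORC2, the ATPase that HUSH recruits to compact chromatin, was at 70.2, 70.3 and 72.0 CPM in n.t. libraries and at 43.4, 38.1 and 37.8 CPM in maltonis libraries. The treated values were all well below the untreated ones, which were nearly equal. MORC2 was lower by 1.78-fold (log2(FC) −0.83, SE 0.0724, edgeR adjusted p = 1.00e-05). Its antisense transcript MORC2-AS1, which overlaps it by 1616 exon bases, went the other way, from 5.82 ± 0.915 to 10.6 ± 1.17 CPM (SD, n = 3, log2(FC) 0.86, edgeR adjusted p = 0.000501). Whether the counting used the strand is not given in the sources used here, so reads from the shared bases could have been assigned to either gene or to neither.

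The log2 ratio of MPHOSPH8 to MORC2 rose from −0.29 ± 0.262 to 1.06 ± 0.189 and that of MPHOSPH8 to PPHLN1 from −1.23 ± 0.357 to −0.32 ± 0.0567 (SD, n = 3 each), with no overlap between the groups (exact permutation p = 0.1 for each). TASOR, the scaffold of HUSH, listed under its older symbol FAM208A, was at 141 ± 3.85 CPM in n.t. and 126 ± 11.3 CPM in maltonis libraries (SD, n = 3) and did not pass the test (log2(FC) −0.15, edgeR adjusted p = 0.0926).

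**Figure D2:**
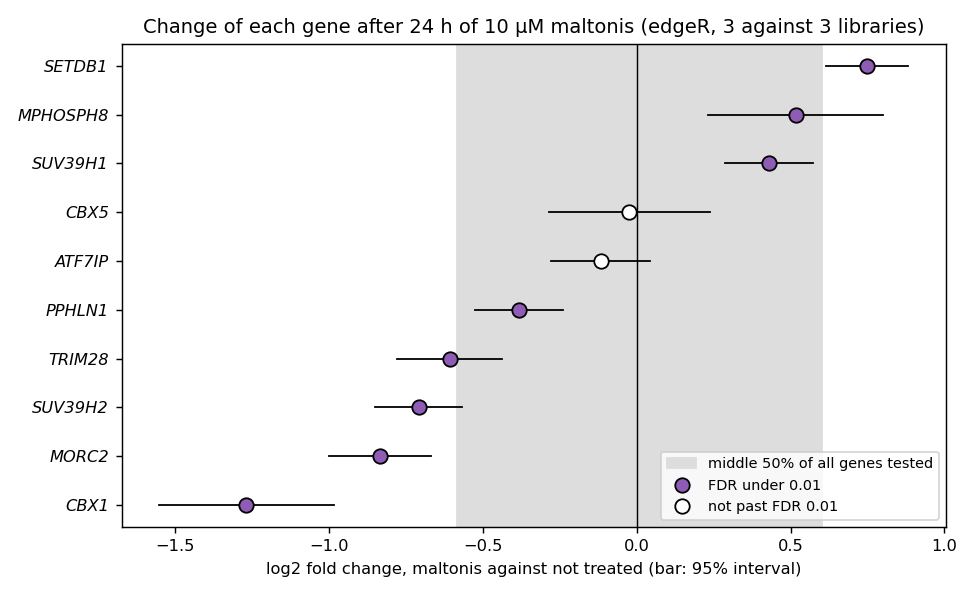
Log2 fold change of maltonis against n.t. (x axis) for each of the 10 genes (rows), with the 95% interval from edgeR; filled points passed the FDR of 0.01, and the grey band spans the middle 50% of all genes tested, from −0.58 to 0.60. SETDB1 lies above the band, TRIM28, SUV39H2, MORC2 and CBX1 lie below it, and the intervals of CBX5 and ATF7IP contain 0.

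The SUV39 paralogs moved apart. SUV39H1, the first of the pair of H3K9 methyltransferases of pericentromeric chromatin, was at 66.0, 64.4 and 62.0 CPM in n.t. cells and at 91.2, 84.8 and 83.1 CPM in treated cells. The groups did not overlap, and the increase was 1.35-fold (log2(FC) 0.43, SE 0.0627, edgeR adjusted p = 0.000257). SUV39H2, its paralog with the same activity, was at 54.2, 53.0 and 51.6 CPM in n.t. cells and at 31.4, 33.0 and 32.7 CPM with maltonis. Here the treated libraries were all lower, by 1.63-fold (log2(FC) −0.71, SE 0.0623, edgeR adjusted p = 1.07e-05). The gene DCLRE1C, which overlaps SUV39H2 by 159 exon bases on the opposite strand, was higher with maltonis (32.2 ± 1.33 against 70.3 ± 2.35 CPM, SD, n = 3). SUV39H1 overlaps AC231533.1 by 685 exon bases on the opposite strand, and that gene was not among the symbols counted. Reads from the shared bases of both paralogs are uncertain.

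Per length, as CPM per kilobase of exon (RPKM), the sum of both SUV39 transcripts was 33.9 ± 0.981 in n.t. and 34.7 ± 1.07 in maltonis libraries (SD, n = 3, two-sided exact permutation p = 0.5). Only TMM scaling was used for this sum, and the near equality depends on it. With total counts the log2(FC) was 0.55 for SUV39H1 and −0.59 for SUV39H2, in place of 0.43 and −0.71. The make-up of that sum differed: SUV39H1 was 56.3, 56.2 and 56.0% of it in n.t. and 75.4, 73.1 and 72.9% in maltonis libraries. The groups were far apart beside the spread within each (56.2 ± 0.175% against 73.8 ± 1.39%, SD, n = 3, exact permutation p = 0.1, the smallest possible). The log2 ratio of SUV39H1 to SUV39H2 rose by 1.12, from 0.27 ± 0.0102 to 1.39 ± 0.103 (SD, n = 3).

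The DNA just before the first listed start of each paralog is shown here because the pair moved in opposite directions. A link between these bases and the changes was not tested. The sequences are the 250 bases upstream of the first start listed in RefSeq on GRCh38.p14, 5′ to 3′ on the strand of the gene. Capitals mark a GC box (GGGCGG, on either strand), an E-box (CACGTG) or a CCAAT box (CCAAT, on either strand).
SUV39H1, chrX:48695304-48695553, plus strand: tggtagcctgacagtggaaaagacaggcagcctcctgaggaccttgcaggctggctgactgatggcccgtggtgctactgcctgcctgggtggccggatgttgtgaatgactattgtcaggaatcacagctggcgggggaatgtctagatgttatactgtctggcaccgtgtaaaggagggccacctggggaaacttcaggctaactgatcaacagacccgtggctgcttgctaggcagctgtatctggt
SUV39H2, chr10:14878616-14878865, plus strand: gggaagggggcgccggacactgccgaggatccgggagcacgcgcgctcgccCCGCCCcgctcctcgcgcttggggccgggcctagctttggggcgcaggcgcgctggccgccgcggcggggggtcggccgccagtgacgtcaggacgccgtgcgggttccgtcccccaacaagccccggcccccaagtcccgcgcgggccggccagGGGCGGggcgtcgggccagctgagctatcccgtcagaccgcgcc

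The SUV39H1 stretch was 56.0% G and C with 5 CG dinucleotides and held none of the motifs searched. The SUV39H2 stretch was 79.6% G and C with 38 CG dinucleotides and held 2 GC boxes, at positions −199 and −44 from the start. Over all 27305 such promoters the median G and C content was 58.0%. The ratio of observed to expected CG dinucleotides was 0.26 for SUV39H1 and 0.96 for SUV39H2. Only the first listed start was used, and which start NB4 cells use was not tested, so the contrast may depend on that choice.

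Among the HP1 genes, CBX1 fell and CBX5 did not pass the test. CBX1 (HP1β) was at 71.4, 94.9 and 94.9 CPM in n.t. libraries and at 32.7, 35.6 and 40.1 CPM in maltonis libraries. The n.t. library of batch A was the lowest of its group but still above every treated library. The decrease was 2.41-fold (log2(FC) −1.27, SE 0.124, edgeR adjusted p = 2.07e-05), the largest change among the 10 genes, with a log2 difference of −1.10 in batch A and a log2(FC) of −1.33 in batch B. The annotation holds 5 pseudogenes named for CBX1, and reads that they share with it are uncertain.

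CBX5 (HP1α) was at 381, 437 and 543 CPM in n.t. libraries and at 449, 454 and 436 CPM in maltonis libraries. The maltonis values fell inside the range of the n.t. values, which were spread widely (CV 18.1%). The log2(FC) was −0.02 with a 95% interval from −0.29 to 0.24 (edgeR adjusted p = 0.857), and its sign turned with the batch (a log2 difference of 0.24 in A and a log2(FC) of −0.14 in B).

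CBX3 (HP1γ), the remaining HP1 paralog, was lower, at 504 ± 32.1 CPM in n.t. and 300 ± 31.2 CPM in maltonis libraries (SD, n = 3, log2(FC) −0.75, edgeR adjusted p = 5.87e-05), with 9 pseudogenes named for it. The summed RPKM of the 3 HP1 genes was 167 ± 15.3 without and 106 ± 7.48 with maltonis (SD, n = 3, exact permutation p = 0.1). CBX5 made up 17.0, 16.7 and 20.3% of that sum in n.t. and 30.4, 28.3 and 25.6% in maltonis libraries, with no overlap.

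CBX1 made up 15.5, 17.7 and 17.3% of it in n.t. and 10.8, 10.8 and 11.5% in maltonis libraries, also with no overlap. CBX3 remained the main HP1 transcript per length, at 65.2 ± 2.64% and 60.9 ± 2.06% (SD, n = 3, exact permutation p = 0.2). These shares depend on the exon length taken for each gene: with the longest transcript or with the RefSeq-linked exons, the share of CBX5 rose by 7.43 or 7.60 percentage points in place of 10.1, and that of CBX1 changed by −3.81 or −3.69 points in place of −5.80.

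**Figure D3:**
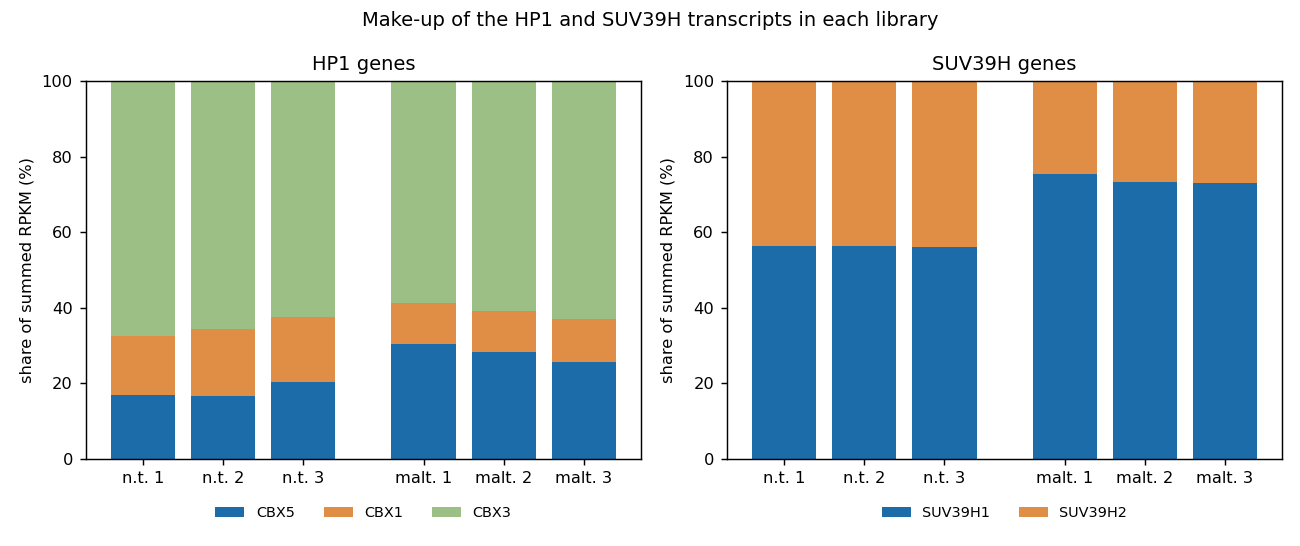
Share of each gene (y axis, %) in the summed RPKM of the HP1 genes (left) and of the SUV39 genes (right) in each of the 6 libraries (x axis; malt., maltonis). The share of CBX5 runs from 16.7 to 20.3% in n.t. and from 25.6 to 30.4% in maltonis libraries, and that of SUV39H1 from 56.0 to 56.3% and from 72.9 to 75.4%.

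The upstream stretches of CBX1, CBX5 and SETDB1 are shown with the same capitals. CBX1 was lower, SETDB1 was higher and CBX5 did not pass the test. Other matched promoters, such as those of MPHOSPH8 and MORC2, which moved in opposite directions, are not shown. A link between these bases and the changes was not tested.
CBX1, chr17:48101187-48101436, minus strand: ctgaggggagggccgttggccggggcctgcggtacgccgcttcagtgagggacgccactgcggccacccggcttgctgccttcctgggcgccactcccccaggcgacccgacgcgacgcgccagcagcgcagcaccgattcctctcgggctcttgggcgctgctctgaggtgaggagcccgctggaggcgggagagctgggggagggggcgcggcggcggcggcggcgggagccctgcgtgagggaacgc
CBX5, chr12:54280123-54280372, minus strand: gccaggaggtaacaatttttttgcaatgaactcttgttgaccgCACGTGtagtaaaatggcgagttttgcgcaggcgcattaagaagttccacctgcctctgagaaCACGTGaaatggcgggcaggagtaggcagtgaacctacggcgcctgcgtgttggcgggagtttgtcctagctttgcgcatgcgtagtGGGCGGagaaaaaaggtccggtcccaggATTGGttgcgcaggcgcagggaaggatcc
SETDB1, chr1:150926013-150926262, plus strand: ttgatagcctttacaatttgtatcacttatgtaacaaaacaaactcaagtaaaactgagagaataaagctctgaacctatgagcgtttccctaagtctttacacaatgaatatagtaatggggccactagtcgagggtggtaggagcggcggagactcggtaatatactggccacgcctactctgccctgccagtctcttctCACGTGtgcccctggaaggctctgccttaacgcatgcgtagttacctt

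CBX5 held 2 E-boxes, 1 GC box and 1 CCAAT box, SETDB1 held 1 E-box at position −48 from its start, and CBX1 held none. A promoter was matched for 9 of the 10 genes, all but TRIM28. The E-box, the sequence bound by MYC and MAX among others, was in 2 of the 9, both among the stretches shown, and in 6.49% of all 27305 promoters. The GC box was in 5 of the 9 and in 42.3% of all, and the CCAAT box in 4 of the 9 and in 33% of all. The 2 forms of the E2F site searched (TTTCGCGC, in 0.469% of all promoters, and TTTCCCGC, in 1.42%) were in none of the 9, which says only that these letters are not in these windows on either strand.

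Levels can be compared between genes only per length, and parts of their order depended on the length taken. In n.t. cells TRIM28 was the highest of the 10 at 225 ± 16.2 RPKM (SD, n = 3), followed by CBX5 at 30.2 ± 5.46 and CBX1 at 28.2 ± 4.39, whose ranges overlapped. SUV39H1 (19.0 ± 0.608) and SUV39H2 (14.8 ± 0.373) came next, then MPHOSPH8, MORC2 and PPHLN1 at 11.9, 11.3 and 11.3 RPKM with overlapping ranges, SETDB1 at 9.69 ± 0.262 and ATF7IP at 4.89 ± 0.273. With the longest transcript or the RefSeq-linked exons in place of all exons, PPHLN1 was at 23.0 or 33.0 RPKM, above both SUV39 genes, and SETDB1 at 15.5 or 14.8 RPKM, above MPHOSPH8 and MORC2. With the RefSeq-linked exons the mean of PPHLN1 was also above that of CBX1 (32.5 RPKM).

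With maltonis TRIM28 was still the highest at 147 ± 9.67 RPKM, CBX5 (29.7 ± 0.639) and SUV39H1 (25.6 ± 1.28) followed, and MPHOSPH8 (17.1 ± 0.941) and SETDB1 (16.3 ± 0.632) were next with overlapping ranges. CBX1 (11.7 ± 1.20), SUV39H2 (9.08 ± 0.224), PPHLN1 (8.65 ± 0.157), MORC2 (6.36 ± 0.505) and ATF7IP (4.51 ± 0.236) made up the rest (SD, n = 3 throughout). Under the other lengths PPHLN1 (17.6 or 25.3 RPKM) was above CBX1 (14.9 or 13.5) and SETDB1 (26.0 or 24.8) above MPHOSPH8 (19.8 with both). TRIM28 was the highest, CBX5 the next and ATF7IP the lowest of the 10 in both groups under all 3 lengths. With maltonis SUV39H1 came after CBX5 under all 3 lengths.

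The 3 genes whose levels followed CBX1 most closely over the 6 libraries were HSP90AB1, PNO1 and REEP5 (Pearson r of log2(CPM + 1) 0.9994, 0.9994 and 0.9993). These are descriptions over 6 libraries that share the contrast between the groups, and all 3 genes were lower with maltonis.

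Beyond the 10 genes, 66 tested genes of 6 lists from the same pathway were described by their counts, to be read against the 31.9% called higher and 32.1% called lower over all genes. Of 7 other H3K9 methyltransferases and partners, 1 was higher, 2 were lower and 4 did not pass, with a median log2(FC) of 0.13. The count of lower genes was 1 without n.t. replicate 2 or 3 or maltonis replicate 2 or 3, and that of higher genes was 2 without n.t. replicate 3. With total counts or upper-quartile scaling, 2 were higher and 1 was lower. SETDB2, the paralog of SETDB1, was higher (50.8 ± 0.437 against 68.0 ± 3.60 CPM, SD, n = 3, log2(FC) 0.42, edgeR adjusted p = 0.000313). EHMT2 (G9a), which makes the mono- and dimethylated forms of H3K9, was lower (232 ± 12.5 against 178 ± 12.8 CPM, SD, n = 3, log2(FC) −0.38, edgeR adjusted p = 0.00107). WIZ, its zinc finger partner, was lower as well (log2(FC) −0.47, edgeR adjusted p = 0.00619).

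Of 14 other cofactors of HUSH, SETDB1 and TRIM28, 3 were higher, 4 lower and 7 did not pass, with a median log2(FC) of 0.03. Under the other settings or with 1 library left out, 2 to 4 were higher and 3 to 5 lower. The paralogous ATPases of the NuRD complex, which binds TRIM28, went opposite ways: CHD4 was at 737 ± 67.3 CPM in n.t. and 256 ± 5.41 CPM in maltonis libraries (log2(FC) −1.53, edgeR adjusted p = 3.81e-07), and CHD3 at 106 ± 16.1 and 197 ± 8.70 CPM (log2(FC) 0.89, edgeR adjusted p = 6.96e-05; SD, n = 3). MORC3, a paralog of MORC2, was higher (68.7 ± 3.34 against 106 ± 4.80 CPM, SD, n = 3, log2(FC) 0.63, edgeR adjusted p = 2.85e-05).

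Of 14 HP1 paralog, reader and chaperone genes, 5 were higher, 3 lower and 6 did not pass, with a median log2(FC) of −0.08. The count of lower genes was 5 without n.t. replicate 1 or with the DESeq2 Wald test, and 6 with a replicate block, a batch term or batch B alone. LRWD1 (ORCA), a reader that binds origins and heterochromatin, was higher by a log2(FC) of 1.10 and ADNP2 by 0.83. CBX3 and SMCHD1, a structural protein of the inactive X chromosome, were lower, by log2(FC) of −0.75 and −0.56.

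The enzymes that remove H3K9 methylation were split evenly, with 4 of 11 higher, 4 lower and 3 not past the test. KDM1A (LSD1) was at 317 ± 13.3 CPM in n.t. and 74.3 ± 1.20 CPM in maltonis libraries (SD, n = 3, log2(FC) −2.09, edgeR adjusted p = 3.00e-08), the largest decrease in these lists. KDM7A, listed as JHDM1D, was lower by a log2(FC) of −1.48. Of the KDM4 family, which acts on the trimethylated form, KDM4A (log2(FC) 0.43), KDM4C (0.36) and KDM4D (1.24) were higher, and KDM4B, with a log2(FC) of 0.18, did not pass (edgeR adjusted p = 0.056).

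Of 15 KRAB zinc finger genes described at retroelements, 8 were higher, 2 lower and 5 did not pass, with a median log2(FC) of 0.36. The count of higher genes was 6 without n.t. replicate 2 or maltonis replicate 2 or 3. It was 7 without replicate 1 of either group and 9 in batch B alone. ZNF93, which binds LINE-1 elements, was higher (33.7 ± 1.55 against 58.5 ± 2.28 CPM, SD, n = 3, log2(FC) 0.80, edgeR adjusted p = 8.59e-06), as was ZNF417 (log2(FC) 0.72, edgeR adjusted p = 7.49e-05). ZNF382 and ZNF649 were lower, with log2(FC) of −1.39 and −1.26. These genes belong to a large family of similar sequences, and reads that fit several of them are uncertain.

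**Figure D4:**
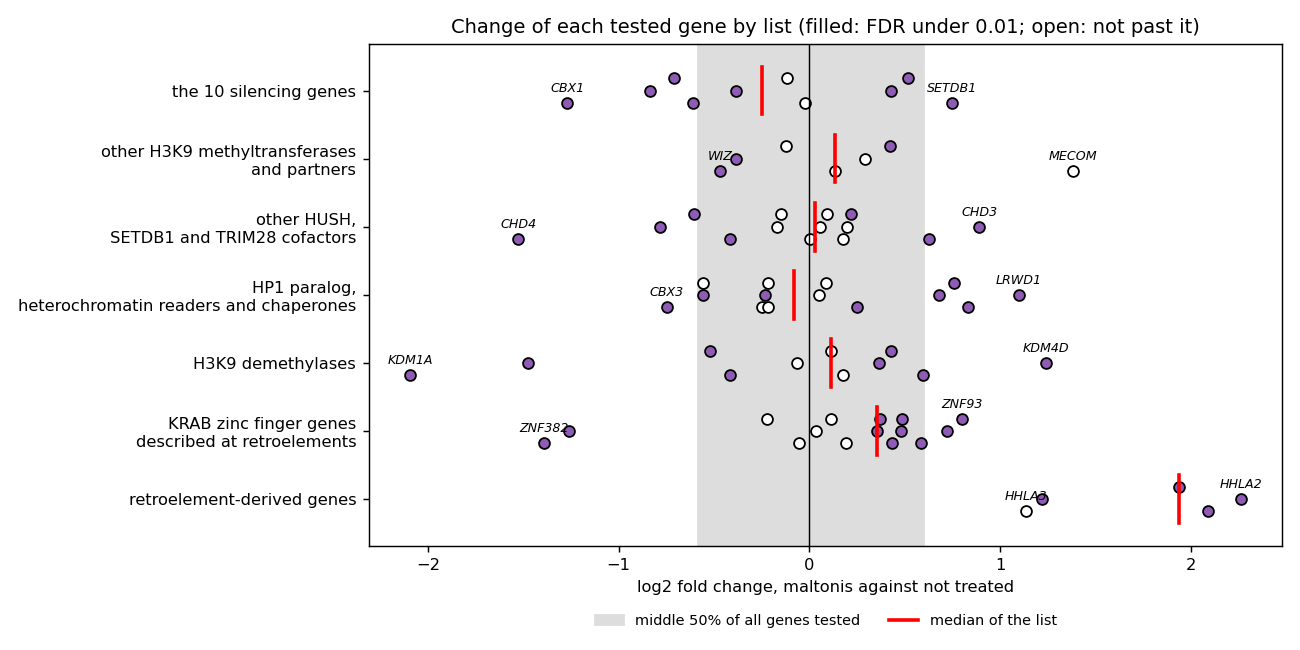
Log2 fold change of maltonis against n.t. (x axis) of every tested gene of the 10 silencing genes and of the 6 other lists (rows); filled points passed the FDR of 0.01, red lines are medians and the grey band is the middle 50% of all genes tested. The lists scatter to both sides of 0, except the retroelement-derived genes, some of them only named for a nearby retroelement. Their 5 tested members all lie above 0, but a gene could enter through the group where it was high.

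Retroelements are the kind of sequence that this machinery acts on. Of 16 genes derived from them or named for a nearby one, here called retroelement-derived, 13 were listed and 5 were tested. Of these, 4 were higher, none was lower and 1 did not pass, with a median log2(FC) of 1.94. With so few genes past the filter, which a gene could also pass through the group where it was high, this count is a description only.

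ERV3-1, an endogenous retroviral envelope gene that shares transcripts with the neighbouring zinc finger gene ZNF117, was at 8.63, 7.62 and 8.14 CPM in n.t. and at 32.1, 30.8 and 30.3 CPM in maltonis libraries. ERVFRD-1, the gene of the fusogenic envelope protein syncytin-2, was at 1.01, 1.21 and 1.45 CPM in n.t. and at 6.09, 5.04 and 5.01 CPM in maltonis libraries. ERVK13-1, from the HERV-K group, was at 7.08, 6.54 and 7.72 CPM in n.t. and at 17.2, 16.2 and 16.3 CPM in maltonis libraries. In all 3 the groups were well apart, and the log2(FC) were 1.94, 2.09 and 1.22.

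HHLA2, an immune ligand gene named for a nearby HERV-H repeat, passed the test on few reads. It had 1, 4 and 4 counts in n.t. and 10, 18 and 13 counts in maltonis libraries. With so few n.t. counts, it passed the filter only through the maltonis libraries. HHLA3 was at 0.533, 0.828 and 0.814 CPM in n.t. and at 2.89, 1.13 and 1.28 CPM in maltonis libraries, with 1 treated library far above the others, and did not pass (edgeR adjusted p = 0.0269). Counts are per gene symbol, so reads from the retroelement copies themselves were not analysed here.

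**Figure D5:**
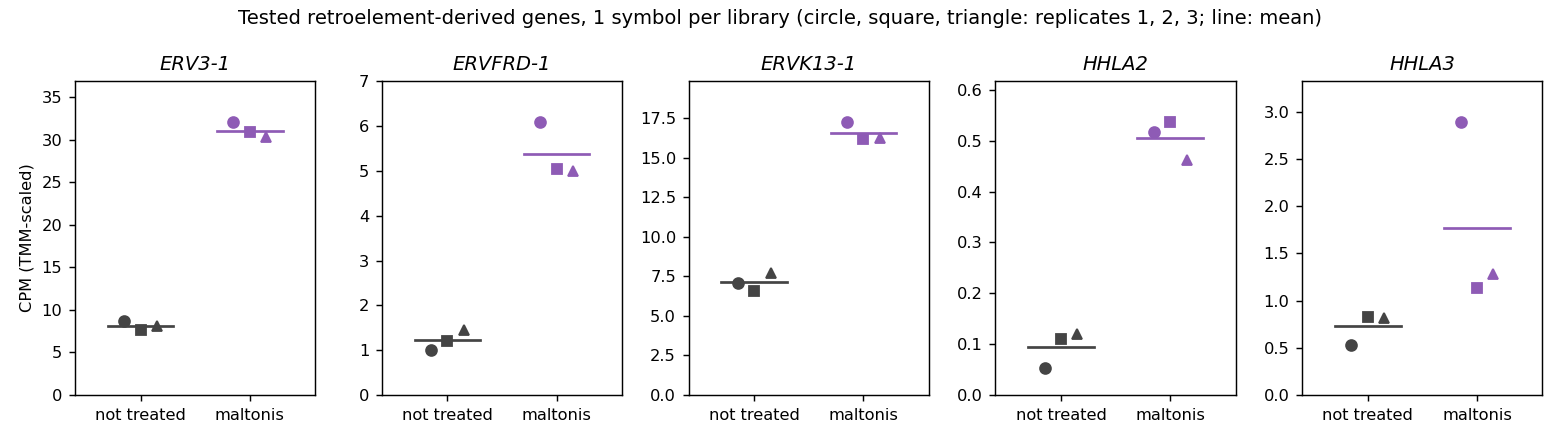
TMM-scaled CPM (y axis, from 0, own scale per gene) of the 5 tested retroelement-derived genes in each n.t. and maltonis library; each symbol is 1 library and each line a group mean. The maltonis libraries lie above the n.t. libraries in all 5 panels, a separation that 38.8% of all genes tested had. HHLA3 did not pass the test, and HHLA2 stays under 0.6 CPM throughout.

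To show how genes of cell division moved in the same libraries, 13 replication and proliferation genes were set beside the silencing genes. Of these, 2 were higher (1 without maltonis replicate 2), 5 lower (8 in batch B alone) and 6 did not pass, with a median log2(FC) of −0.21. MCM2 and MCM3, subunits of the replicative helicase, were lower by log2(FC) of −0.54 and −0.49, while CDT1, the licensing factor, was higher by 1.08 and TOP2A by 0.30. The part of these changes in those of SUV39H2, CBX1 and CBX3 was not tested.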

How the data were processed

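Total RNA of NB4 cells was sequenced with a stranded total RNA kit. The authors deposited, per library, raw counts of reads per gene symbol from HTSeq. The submitters' processing notes also name TopHat, Bowtie2 and hg19, while versions, gene annotation and strand setting are not given in the sources used here. Reads shared by overlapping genes, antisense genes, pseudogenes or paralogs are therefore uncertain.

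Groups came from the sample labels. Counts were tested in R 4.3.3 with edgeR 4.0.16 (filterByExpr, TMM scaling, the quasi-likelihood test with the group as sole term over all 6 libraries, and Benjamini-Hochberg adjustment over 13209 genes). SE is the log2(FC) divided by the square root of F, and 95% intervals use its degrees of freedom. Ratios are log2(CPM + 1) differences. RPKM used the summed exon length of GENCODE version 29. Promoters are from RefSeq. The procedure was tested on simulated data in which few genes changed, by folds drawn equally for both directions. In the libraries themselves 64% of the genes tested were called. The simulation therefore did not test the scaling under so broad a change.

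The genes and lists were chosen with earlier results of these data known. Named genes are all 10 members and CBX3, EHMT2, TASOR and the KDM4 genes. From each other list, up to 2 increases and 2 decreases were named, the largest at an FDR under 0.01 without overlap between the groups. The 3 genes closest to the member that changed most, and others where a count or a group needed them, were named as well, the latter (ERV3-1, ERVK13-1, HHLA3, the overlapping genes) after their values were seen. DESeq2 1.42.0, other scalings, filters and lengths, a replicate or batch term and left-out libraries were alternatives. The limit of 3 counts covers the counting error of a count of 0 alone, not the spread between replicates. Some genes that this rule covers are not reported here by name.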

Additional observations from a re-analysis of the deposited data

How the results depend on the processing

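The counts of 3 higher and 5 lower among the 10 genes were unchanged under DESeq2's size factors or Wald test, total counts, upper-quartile scaling, edgeR's likelihood ratio test, no filter on low counts, a replicate block, a batch term and batch B alone. When 1 library was left out, 2 to 3 were higher and 5 lower. Past the size criterion as well, 1 gene, CBX1, was lower in batch B alone, and 0 to 1 when 1 library was left out (1 without n.t. replicate 1 or maltonis replicate 3), against 0 with all libraries. Signs turned only for genes that did not pass: ATF7IP had a log2(FC) of 0.00185 with total counts, and CBX5 0.0948 with total counts, 0.0624 with upper-quartile scaling, −0.15 to 0.12 with 1 library left out (above 0 without n.t. replicate 3) and a difference of 0.24 in batch A alone. Total counts raised the median log2(FC) of all genes by 0.12. The 8 ratios kept their direction under each alternative run. None of them overlapped between the groups, and scaling nearly cancels within a library, so this outcome was largely fixed and adds no support. Replicate 1 of both groups is also batch A, while replicates 2 and 3 share batch B, and the labels name nothing else that ties same-numbered libraries. Their deviations correlated at 0.301, 0.0852 and 0.161 for replicates 1, 2 and 3, against a mean of −0.0868 between unlike numbers. Replicates 1 and 3 correlated best with their own number (highest with another −0.162 and 0.139), and replicate 2 did not (0.139). The replicate block called 9222 genes in place of 8452 and changed no call among the 10. Left out 1 library at a time, all genes higher were 3503 to 4336 and lower 3801 to 4457. The genes with few reads, such as HHLA2, are limited by depth, and the 3 libraries per group limit every exact test to p = 0.1.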

Other observations

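Genes of the lists that were too low to test are given here by their counts. PEG10, an imprinted gene derived from a retrotransposon, had 0 counts in all 3 n.t. libraries and 11, 8 and 13 counts in maltonis replicates 1, 2 and 3. Its mean level with maltonis was 0.423 ± 0.168 CPM (SD, n = 3), 3.81-fold above the limit of 3 counts in each n.t. library. Only the n.t. side is bounded in this fold, and the spread of the maltonis libraries is not covered. Of the other listed retroelement-derived genes, 7 had at most 3 counts in every library (ERVMER34-1, ERVV-1, ERVV-2, L1TD1, RTL1, LDOC1 and HHLA1), as did MORC1 and MORC4 among the paralogs of MORC2.

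The values of a pair of genes that share exon bases with SETDB1 or CBX3 are given here. CERS2, a ceramide synthase gene that overlaps SETDB1 by 948 exon bases on the opposite strand, was at 223 ± 9.47 CPM in n.t. and 182 ± 4.91 CPM in maltonis libraries (SD, n = 3), lower where SETDB1 was higher. HNRNPA2B1, which overlaps CBX3 by 368 exon bases, was at 536, 942 and 980 CPM in n.t. and at 493, 505 and 490 CPM in maltonis libraries, so that the n.t. library of batch A lay nearer the treated libraries than its own group.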
